A study of Drosophila melanogaster with 17 samples.

Results

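The RNA of 10 genes of the microtubule system was followed in sorted progenitor cells of the adult fly midgut: the stathmin gene stai, the microtubule-associated protein genes futsch, tau and Map205, the alpha tubulin genes alphaTub84B, alphaTub84D and alphaTub85E, and the beta tubulin genes betaTub56D, betaTub60D and betaTub97EF. They are 10 of the 17807 genes in the count files and were picked by name as tubulins and neuronal microtubule regulators. The gene stai was picked for its response to scute, so its values with scute are given as a description, with no test. The other 9 were chosen with earlier results of these libraries known.

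Microtubules are polymers of alpha and beta tubulin dimers that grow and shrink at their ends, carry cargo and build the mitotic spindle. Stathmins bind free tubulin dimers and promote shrinkage, while microtubule-associated proteins such as Tau and Futsch bind along the polymer and stabilise it, above all in axons. The fly midgut epithelium is renewed by stem cells whose daughters become absorptive enterocytes or hormone-secreting enteroendocrine cells, and enteroendocrine cells share many genes with neurons.

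The study compared progenitors in which basic helix-loop-helix transcription factors were raised or lowered. Every group carried the transgenes esg-Gal4, UAS-GFP and tub-Gal80[ts], so expression was restricted to cells in which the escargot (esg) driver is active, the stem cells and enteroblasts. Batch 1 held 2 libraries with UAS-da (the E protein Daughterless), 3 libraries with UAS-da-RNAi and 3 controls with no further transgene. Batch 2 held 3 libraries with UAS-da:da (a tethered Daughterless homodimer), 3 libraries with UAS-scute (a proneural partner of Daughterless) and 3 controls of its own. Flies were reared at 18 °C, and adults were shifted for 2 days to 29 °C, where Gal80[ts] no longer blocks Gal4. Each library came from a pool of about 100 midguts, from which 20000 to 40000 GFP-positive cells were sorted, and its RNA was amplified before library preparation. The labels give neither the sex nor the age of the flies beyond adult.

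Batch 1 libraries held 33889877 to 40868714 assigned reads. Batch 2 libraries, in which both mates of a pair entered the count, held 47136298 to 66679229. The targeted gene da was at 845 to 897 CPM with da overexpressed and 20.9 to 34.8 CPM in the knock-down, against 92.4 to 137 CPM in the controls of batch 1. In batch 2, da was at 199 to 246 CPM with da:da, against 75.3 to 79.0 CPM in controls, and sc was at 1754 to 2646 CPM with scute, against 1.72 to 1.83 CPM in controls. Transgene reads could not be separated from those of da and sc. The unit CPM is the count scaled to the library size after TMM normalisation. The 6 progenitor markers were detected in every group, at a summed 542 to 2052 CPM per library. Enteroendocrine markers summed to 220 to 287 CPM in the controls of batch 1 and to 4065 to 4493 CPM in those of batch 2, where the hormone gene NPF alone held 3568 to 3880.3 CPM. Without NPF the sums were 149 to 251 CPM and 497 to 614 CPM. For this reason levels were compared within batches and changes always with the control of the same batch. All adjusted p-values are from edgeR's quasi-likelihood test with Benjamini-Hochberg adjustment over all genes tested, and a gene was called changed under 0.05. Because the replicates are separate pools of guts, the p-values measure the spread between pools.

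With scute overexpressed, the axonal microtubule-associated protein genes futsch and tau rose, while Map205 and the beta tubulin genes betaTub60D and betaTub97EF fell. Of the 10 genes, all of which passed the filter on low counts, 4 rose (futsch, tau, alphaTub84D and betaTub56D), 3 fell (Map205, betaTub60D and betaTub97EF), 2 were not called (alphaTub84B and alphaTub85E), and stai was not tested. In this comparison 45% of the 14190 genes tested were called, 22.8% higher and 22.2% lower. The scute and control libraries did not overlap for any of the 10 genes, stai included, as for 54.2% of all genes tested. The median log2 change was 0.38 over the 10 genes, stai included, and 0.05 over all genes tested. Without stai, which was chosen for this response, the middle value was that of alphaTub84B, 0.30.

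With the tethered da:da homodimer, 1 of the 10 rose (betaTub60D), 1 fell (betaTub97EF) and 8 were not called, where 11.9% of all genes tested were called, 5.39% higher and 6.52% lower. The groups did not overlap for 5 of the 10, as for 27.7% of all genes tested. With monomeric da overexpressed, 9 of the 10 passed the filter on low counts, of which 3 rose (futsch, betaTub56D and betaTub60D) and 6 were not called, where 22.9% of the 9540 genes tested were called, 13.5% higher and 9.36% lower. The groups did not overlap for 4 of the 9, as for 51.1% of all genes tested. In the da knock-down, 3 of 9 fell (stai, tau and betaTub60D) and 6 were not called, where 20.4% of all genes tested were called, 11.2% higher and 9.16% lower. The groups did not overlap for 5 of the 9, as for 40.3% of all genes tested. The gene alphaTub85E was the one not tested in batch 1. The median log2 change of the genes was 0.10 with da:da, 0.19 with da and -0.19 in the knock-down, against -0.01, -0.02 and -0.01 over all genes tested. Without TMM scaling the median of all genes shifted by 0.44 with scute, 0.11 with da:da and -0.36 in the knock-down, and values given for unscaled library sizes below carry that shift.

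**Figure D1:**
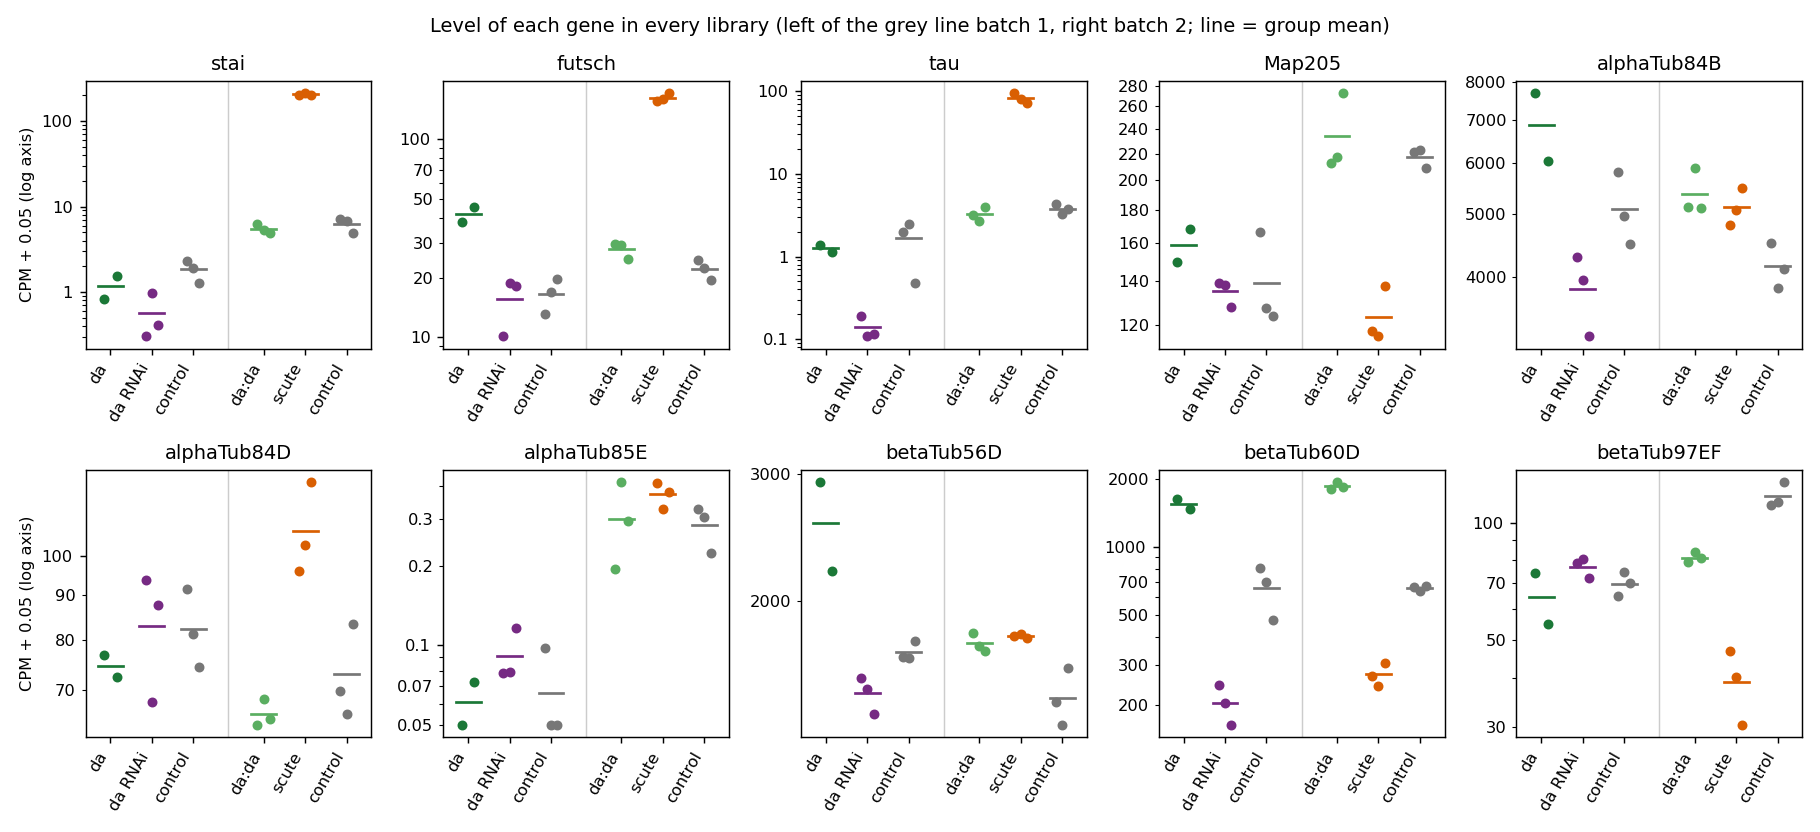
Each panel shows 1 gene, with 1 point per library and a line at the group mean; the vertical axis is CPM plus an offset of 0.05 on a log scale and differs between panels, and the grey line parts the batches. The scute libraries stand above 200 CPM for stai, at 156 to 171 CPM for futsch and at 71.9 to 94.4 CPM for tau, while betaTub60D is high with da and da:da and low in the knock-down and with scute.

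The stathmin gene stai (FBgn0266521, chromosome 2L, 6100377 to 6124653, plus strand, BDGP6.28) had 202, 211 and 203 CPM in the scute libraries. It had 6.17, 5.33 and 4.91 CPM with da:da, against 7.18, 6.76 and 4.87 CPM in the controls of both. The scute libraries lay far above both other groups of batch 2, and the da:da and control libraries overlapped. As a description, the log2 change with scute was 5.03 ± 0.16 (SE), or 32.8-fold, against controls and 5.23 ± 0.16 against da:da. The authors' deposited table gives a log2 change of 5.05 for scute against control. With da:da, stai was not called (log2 change -0.19 ± 0.14, adjusted p = 0.487).

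In batch 1 stai was near the lower end of what was counted, with 9 to 96 reads per library. It had 0.783 and 1.48 CPM with da overexpressed, 0.255, 0.936 and 0.367 CPM in the knock-down, and 2.28, 1.86 and 1.24 CPM in controls. The knock-down libraries lay below all control libraries, and the da libraries overlapped both other groups. It fell in the knock-down by 1.78 ± 0.51 on the log2 scale (adjusted p = 0.0346). That call was lost without knock-down replicate 1 (log2 change -1.45, adjusted p = 0.0945), knock-down replicate 3 (-1.59, 0.107), control replicate 1 (-1.57, 0.112) or control replicate 2 (-1.76, 0.101), and the value was -2.53 without knock-down replicate 2. With da overexpressed, stai was not called against control (log2 change -0.65 ± 0.54, adjusted p = 0.424). Against the knock-down it was not called either (log2 change 1.13 ± 0.55, adjusted p = 0.157), but without knock-down replicate 2 the adjusted p was 0.0266. In bulk libraries, fewer cells of a type and less RNA per cell cannot be told apart.

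The gene futsch (FBgn0259108, chromosome X, 1409069 to 1453686, plus strand) encodes the fly relative of the neuronal protein MAP1B, which stabilises microtubules in axons and at synapses. It had 156, 159.6 and 171 CPM with scute and 29.4, 29.1 and 24.7 CPM with da:da, against 24.6, 22.4 and 19.5 CPM in controls. All scute libraries lay above the rest of batch 2, and the da:da libraries sat just above the controls without overlap. It rose with scute 7.32-fold against control (log2 change 2.87 ± 0.12, adjusted p = 7.7e-09) and 5.85-fold against da:da (adjusted p = 1.5e-08). With da:da, futsch was not called (log2 change 0.32 ± 0.11, adjusted p = 0.0876), and it was called with unscaled library sizes (adjusted p = 0.0277) or without da:da replicate 3 (0.0295).

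In batch 1, futsch had 38.2 and 45.4 CPM with da overexpressed, 10.1, 18.8 and 18.0 CPM in the knock-down and 13.02, 16.95 and 19.6 CPM in controls. Both da libraries lay above all others, and the knock-down and control libraries overlapped. It rose with da 2.53-fold against control (log2 change 1.34 ± 0.26, adjusted p = 0.00541) and 2.68-fold against the knock-down (adjusted p = 0.0028). The knock-down was not called against control (log2 change -0.08 ± 0.24, adjusted p = 0.854). Of the exon bases of futsch, 5.09% are shared with the taste receptor gene Gr2a on the same strand, where reads were not counted for either gene.

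The gene tau (FBgn0266579, chromosome 3R, 27639886 to 27656996, minus strand) encodes the fly homologue of the human axonal protein Tau. It had 94.4, 81.2 and 71.9 CPM with scute and 3.14, 2.62 and 3.89 CPM with da:da, against 4.26, 3.22 and 3.73 CPM in controls. The scute libraries lay above all others, and the da:da and control libraries overlapped. It rose with scute 22.03-fold against control (log2 change 4.46 ± 0.18, adjusted p = 7.2e-09) and 25.6-fold against da:da (adjusted p = 5.2e-09). With da:da it was not called (log2 change -0.21 ± 0.17, adjusted p = 0.521).

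In batch 1, tau was nearly uncounted in the knock-down. It had 44 and 48 reads (1.33 and 1.08 CPM) with da overexpressed. The knock-down libraries held 5, 2 and 2 reads (0.142, 0.0585 and 0.0668 CPM), and the controls held 82, 108 and 17 reads (1.94, 2.45 and 0.432 CPM). The knock-down lay below every other library, while the controls differed among themselves and spanned the da libraries. It fell in the knock-down by 4.11 ± 0.70 on the log2 scale (adjusted p = 0.00359) and was higher with da than in the knock-down by 3.69 ± 0.74 on the log2 scale (adjusted p = 0.00472). With da against control it was not called (log2 change -0.43 ± 0.61, adjusted p = 0.663). The size of the fall rests on 2 to 5 reads per knock-down library.

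The gene Map205 (FBgn0002645, chromosome 3R, 32055279 to 32068441, minus strand) encodes a fly microtubule-associated protein that binds the mitotic kinase Polo. It had 117, 115.1 and 138 CPM with scute and 213, 218 and 272 CPM with da:da, against 221, 223 and 209 CPM in controls. The scute libraries lay below all others in batch 2, and the da:da and control libraries overlapped. It fell with scute by 0.82 ± 0.12 on the log2 scale (adjusted p = 0.000103) against control and by 0.93 ± 0.12 against da:da (adjusted p = 4.5e-05). In batch 1 its libraries ranged from 149.6 to 168 CPM with da, from 128 to 139 CPM in the knock-down and from 124 to 167 CPM in controls, and no comparison was called (log2 change 0.19 ± 0.15, adjusted p = 0.411 with da, and -0.04 ± 0.14, adjusted p = 0.867 in the knock-down).

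**Figure D2:**
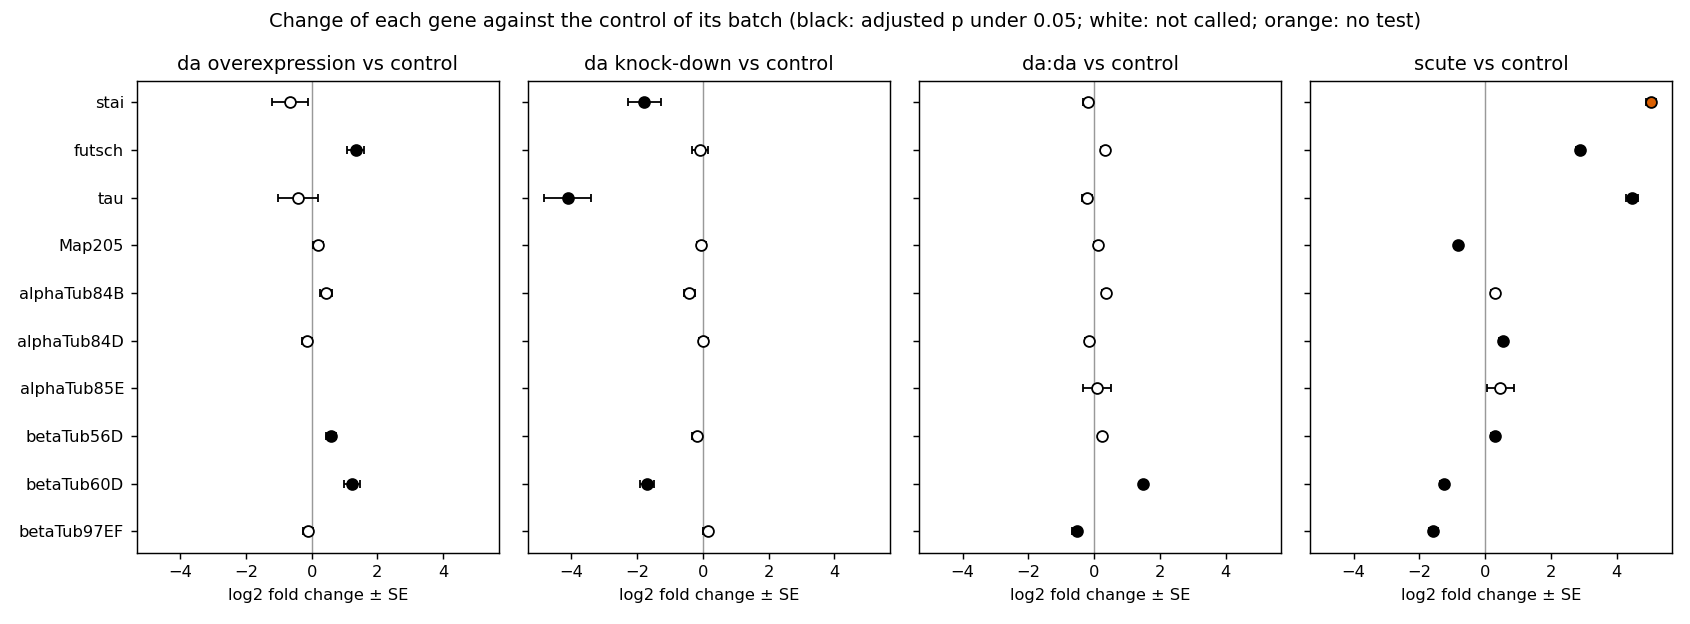
Log2 fold change of each gene (points) with its standard error (bars) in 4 comparisons with the control of the same batch; black points have an adjusted p under 0.05, white points do not, and the orange point of stai has no test. The largest values are the rises of stai (5.03), tau (4.46) and futsch (2.87) with scute and the fall of tau by 4.11 in the knock-down.

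Among the alpha tubulins, alphaTub84B (FBgn0003884, chromosome 3R, 7086599 to 7088839, plus strand) encodes the main, widely used alpha tubulin, alphaTub84D (FBgn0003885, chromosome 3R, 7530753 to 7532732, plus strand) a nearly identical protein, and alphaTub85E (FBgn0003886, chromosome 3R, 9731221 to 9733250, minus strand) an isotype of restricted use. Reads that mapped to several places were not counted, 3.86% to 5.14% of reads in batch 1 and 6.22% to 7.72% in batch 2, so the levels of alphaTub84B and alphaTub84D and the split between them are uncertain. As counted and per kilobase of exon, alphaTub84B made up 98.1% to 99.0% of the alpha tubulin RNA in each group on average.

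The gene alphaTub84B had 7688 and 6035 CPM with da overexpressed, 4283, 3948 and 3234 CPM in the knock-down and 5806, 4970.1 and 4489.9 CPM in controls. The 3 groups did not overlap, with da highest and the knock-down lowest. It was higher with da than in the knock-down by 0.84 ± 0.18 on the log2 scale (adjusted p = 0.00584), and it was called in neither comparison with control (0.43 ± 0.18, adjusted p = 0.113 with da, and -0.41 ± 0.16, adjusted p = 0.101 in the knock-down). The labels do not say that libraries of the same replicate number are pairs. With the numbers taken as a block, the adjusted p in the knock-down was 0.0466. It was 0.00228 with unscaled library sizes.

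In batch 2, alphaTub84B had 5118, 5896 and 5106 CPM with da:da, 4816, 5071 and 5485 CPM with scute and 4509.5, 3846 and 4113 CPM in controls. The controls lay below all other libraries, and the da:da and scute libraries overlapped. Neither change against control was called (log2 change 0.37 ± 0.12, adjusted p = 0.0653 with da:da, and 0.30 ± 0.12, adjusted p = 0.0542 with scute). Other settings crossed the threshold: DESeq2 (adjusted p = 0.0156 and 0.0461), the stricter filter (0.0251 and 0.00967), unscaled library sizes (0.024 and 0.000319), leaving out da:da replicate 3 (0.0481 and 0.0495), leaving out scute replicate 3 for da:da (0.0434) and robust dispersion for scute (0.0449). Between scute and da:da the log2 change was -0.07 ± 0.12 (adjusted p = 0.699), and it was 0.26 with unscaled library sizes.

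The gene alphaTub84D was counted far less often. It had 96.1, 103 and 122 CPM with scute and 63.8, 68.3 and 64.8 CPM with da:da, against 69.8, 65.7 and 83.4 CPM in controls. All scute libraries lay above the other 6 libraries of the batch. It rose with scute by a log2 change of 0.55 ± 0.12 against control (adjusted p = 0.002) and 0.70 ± 0.12 against da:da (adjusted p = 0.000392). With da:da it was not called (-0.15 ± 0.12, adjusted p = 0.508). In batch 1 its libraries spanned 72.4 to 76.8 CPM with da, 67.7 to 93.6 CPM in the knock-down and 74.4 to 91.4 CPM in controls, and no comparison was called. Its log2 change in the knock-down was 0.01 ± 0.14 (adjusted p = 0.968), and -0.35 with unscaled library sizes.

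The gene alphaTub85E was barely counted. It had 0 to 1 read per library with da, 1 to 2 reads in the knock-down and 0 to 2 reads in the controls of batch 1, and was removed there by the filter on low counts. In batch 2 it had 8 to 16 reads with da:da, 22 to 26 reads with scute and 10 to 15 reads in controls. At this depth no difference was detectable (log2 change 0.08 ± 0.43, adjusted p = 0.944 with da:da, and 0.46 ± 0.41, adjusted p = 0.413 with scute).

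Among the beta tubulins, betaTub56D (FBgn0284243, chromosome 2R, 19447319 to 19451600, minus strand) encodes the widely used isotype. It had 2929 and 2205 CPM with da overexpressed, 1565, 1512 and 1398 CPM in the knock-down and 1676, 1668 and 1764 CPM in controls. The da libraries lay above and the knock-down libraries below the controls, with no overlap. It rose with da 1.51-fold (log2 change 0.59 ± 0.14, adjusted p = 0.0163). It was also higher with da than in the knock-down (log2 difference 0.78 ± 0.14, adjusted p = 0.00296). The call against control was lost without da replicate 1 (log2 change 0.38, adjusted p = 0.101), without control replicate 1 (0.58, 0.0546) or replicate 2 (0.57, 0.066), and with only the compared groups fitted (0.58, 0.0547). In the knock-down it was not called (-0.19 ± 0.13, adjusted p = 0.349), but it was with unscaled library sizes (-0.55, adjusted p = 0.00319).

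In batch 2, betaTub56D had 1808, 1735 and 1707 CPM with da:da, 1792, 1804 and 1778 CPM with scute and 1450.0, 1348 and 1618 CPM in controls. The controls lay below the others, which overlapped. It was called with scute (log2 change 0.28 ± 0.10, adjusted p = 0.0369) and not with da:da (0.25 ± 0.10, adjusted p = 0.153). The scute call was lost with DESeq2's size factors (adjusted p = 0.0665), with only the compared groups (0.111) or all 17 libraries in 1 fit (0.0532), and without scute replicate 1 (0.0746) or 2 (0.102), control replicate 1 (0.0913) or 2 (0.141), or da:da replicate 1 (0.053) or 2 (0.0607). The da:da change was called with unscaled library sizes (adjusted p = 0.0332) or the stricter filter (0.0371).

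The gene betaTub60D (FBgn0003888, chromosome 2R, 24305881 to 24313099, plus strand) encodes a beta tubulin known in the fly embryo from developing muscle. It was called in every comparison of groups. In batch 1 it had 1629 and 1468 CPM with da overexpressed, 246, 204 and 163 CPM in the knock-down and 808, 699 and 475 CPM in controls. The groups did not overlap, with da highest and the knock-down lowest. It rose with da 2.34-fold (log2 change 1.23 ± 0.23, adjusted p = 0.00472) and fell in the knock-down by 1.69 ± 0.21 on the log2 scale (adjusted p = 0.000831). Between da and the knock-down the difference was 7.57-fold (adjusted p = 2e-05).

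In batch 2, betaTub60D had 1812, 1942 and 1843 CPM with da:da, 271, 244 and 307 CPM with scute and 668, 639 and 672 CPM in controls. Again the groups did not overlap, with da:da highest and scute lowest. It rose with da:da 2.83-fold (log2 change 1.4998 ± 0.11, adjusted p = 2.4e-06) and fell with scute by 1.27 ± 0.11 on the log2 scale (adjusted p = 1.4e-06). Between scute and da:da it was lower with scute by a log2 change of -2.77 ± 0.11 (adjusted p = 6.9e-09). These calls held under all alternatives tried.

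The gene betaTub97EF (FBgn0003890, chromosome 3R, 27967008 to 27988384, minus strand) encodes a further beta tubulin isotype. It had 46.9, 40.2 and 30.3 CPM with scute and 79.1, 84.0 and 80.9 CPM with da:da, against 111, 113 and 127 CPM in controls. The 3 groups did not overlap. It fell with scute by 1.58 ± 0.14 on the log2 scale against control (adjusted p = 2.4e-06) and by 1.05 ± 0.14 against da:da (adjusted p = 6.4e-05). With da:da it fell by 0.52 ± 0.14 (adjusted p = 0.0277).

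That last call was lost without any 1 of the 6 da:da and control libraries. The adjusted p was 0.0874, 0.0747 and 0.0925 without da:da replicates 1, 2 and 3, and 0.051, 0.0678 and 0.102 without control replicates 1, 2 and 3. It was 0.0655 with unscaled library sizes. In batch 1, betaTub97EF spanned 55.0 to 74.1 CPM with da, 71.9 to 80.7 CPM in the knock-down and 64.8 to 74.6 CPM in controls, and it was not called. The log2 change was -0.11 ± 0.15 with da (adjusted p = 0.631) and 0.14 ± 0.13 in the knock-down (adjusted p = 0.496), where it was -0.22 with unscaled library sizes.

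Per kilobase of exon, the 3 beta tubulin genes were combined in different proportions. The share of betaTub60D was 30.6% ± 2.70 with da (SD, n = 2), 8.78% ± 1.20 in the knock-down (n = 3) and 21.6% ± 4.91 in controls (n = 3). In batch 2 it was 43.1% ± 1.32 with da:da, 9.99% ± 1.14 with scute and 23.6% ± 1.20 in controls (n = 3 each). Nearly all the rest was betaTub56D, which ranged from 54.4% ± 1.39 of the beta tubulin RNA with da:da to 88.1% ± 0.903 with scute. The share of betaTub97EF was 2.53% ± 0.0709 with da:da, 1.93% ± 0.408 with scute and 5.63% ± 0.224 in the controls of batch 2. Its share was 1.70% ± 0.0839 with da and 4.49% ± 0.160 in the knock-down, against 3.09% ± 0.281 in the controls of batch 1, with no overlap between the groups.

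**Figure D3:**
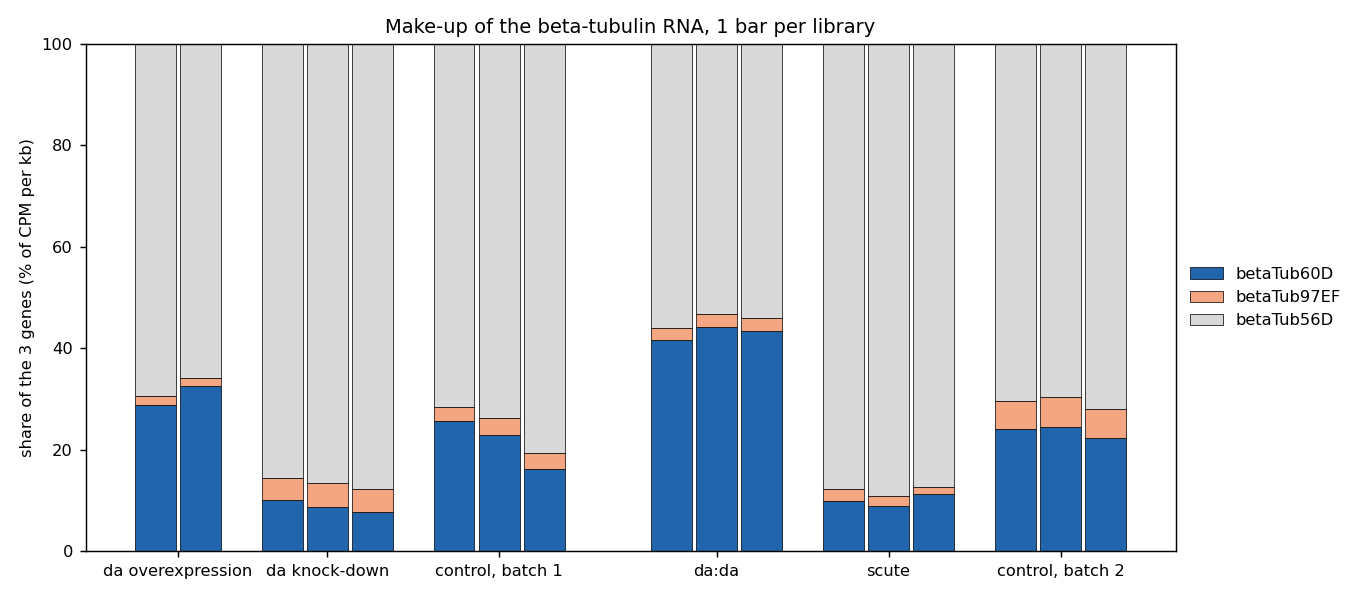
Each bar is 1 library and shows the share of betaTub60D, betaTub97EF and betaTub56D in their summed CPM per kilobase of exon, in percent. The share of betaTub60D lies at 41.6% to 44.2% with da:da and 8.93% to 11.2% with scute, against 22.2% to 24.5% in the controls of batch 2, and at 7.62% to 10.01% in the knock-down, against 16.1% to 25.6% in the controls of batch 1.

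The summed beta tubulin RNA was 3697 ± 65.2 CPM with da:da, 2104 ± 14.6 CPM with scute and 2249 ± 159 CPM in controls (SD, n = 3 each). In batch 1 it was 4179.96 ± 640.1 CPM with da (n = 2), 1773 ± 129.8 CPM in the knock-down and 2433 ± 121 CPM in controls (n = 3 each). The scute libraries overlapped their controls in this sum, at 2088 to 2115 CPM against 2100.2 to 2417 CPM, although betaTub60D and betaTub97EF were lower in all of them. The summed alpha tubulin RNA was 6936 ± 1172 CPM with da, 3905 ± 536 CPM in the knock-down and 5171 ± 675 CPM in the controls of batch 1. It was 5439 ± 455 CPM with da:da, 5231 ± 351 CPM with scute and 4229 ± 335 CPM in the controls of batch 2.

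Markers of visceral muscle, a tissue in which betaTub60D is known, were read beside it. Their 8 genes summed to 8.81 to 10.9 CPM with da and 3.09 to 7.55 CPM in the knock-down, against 3.39 to 3.96 CPM in the controls of batch 1. In batch 2 the sums were 54.6 to 109.6 CPM with da:da and 57.9 to 118 CPM with scute, against 44.0 to 67.6 CPM in controls. Of the 6 that could be tested in batch 1, 3 rose with da, 1 rose in the knock-down and none fell in either. Of the 8 tested in batch 2, none were called with da:da, and 1 rose and none fell with scute. None of the 8 was at 0 in all libraries of any group. Of all genes tested, 13.5% were called higher with da, 11.2% in the knock-down, 5.39% with da:da and 22.8% with scute. Progenitor markers were read beside betaTub60D as well. With da:da, 2 of 6 rose and none fell, and they summed to 1920.3 to 2052 CPM, against 1049 to 1222 CPM in controls. One of them, the neuroblast and stem cell gene mira, was at 542 to 610.2 CPM with da:da, against 59.7 to 95.98 CPM. With da, 1 of 6 rose (mira), and the sums were 1017 to 1246 CPM, against 887 to 1056 CPM in controls. With scute, where betaTub60D fell, 3 of 6 rose, mira among them, and 2 fell. In the knock-down, where betaTub60D fell too, 4 of 6 fell. The part of either list in the betaTub60D values was not tested.

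Monomeric da and tethered da:da gave changes that could be set against each other in 1 fit of all 17 libraries, as the change against the control of batch 2 minus the change against the control of batch 1. None of the 10 genes was called by edgeR, where 6.99% of 14083 genes were called, 2.5% higher and 4.49% lower. At an unadjusted p under 0.05 there was 1, and DESeq2 called 1, in both cases futsch. For futsch the difference was -0.95 ± 0.29 (log2, adjusted p = 0.0542). It was called with DESeq2 (adjusted p = 0.0175) or its size factors (0.0414), without control replicate 3 of batch 1 (0.0306), without knock-down replicate 1 (0.00874) or 2 (0.0353), and without scute replicate 3 (0.0485). For betaTub60D the difference was 0.35 ± 0.26 (adjusted p = 0.515, 95% interval -0.20 to 0.90), so that the data do not settle whether the 2 constructs raised it equally. For stai it was 0.51 ± 0.44 (adjusted p = 0.579).

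Between da overexpression and the knock-down, 5 of the 9 tested genes were called, all higher with da (futsch, tau, alphaTub84B, betaTub56D and betaTub60D), where 30.1% of all genes tested were called, 16% higher and 14.1% lower. The groups did not overlap for 6 of the 9, as for 53.1% of all genes tested. Between scute and da:da, 3 were higher with scute (futsch, tau and alphaTub84D), 3 lower (Map205, betaTub60D and betaTub97EF) and 3 not called, beside stai, where 42.7% of all genes tested were called, 21.4% higher and 21.2% lower. The groups did not overlap for 7 of the 10, stai included, as for 52.8% of all genes tested. These comparisons share libraries with those against control and are not independent of them.

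Per kilobase of exon, alphaTub84B, betaTub56D and betaTub60D were, in this order, the highest of the 10 in all 6 groups, with no overlap between neighbours. In the scute libraries they stood at 2925, 958 and 109 CPM per kb on average. There stai came next at 54.1 ± 1.25 CPM per kb (SD, n = 3) and overlapped alphaTub84D at 54.0 ± 6.68 CPM per kb. In the controls of batch 2, stai was the seventh of 10 at 1.65 ± 0.324 CPM per kb, below Map205 at 36.0 ± 1.22 and above futsch at 0.951 ± 0.110 CPM per kb. The gene tau was at 11.6 ± 1.59 CPM per kb with scute and futsch at 6.96 ± 0.326, against 0.525 ± 0.0729 and 0.951 ± 0.110 CPM per kb in controls. In all 3 groups of batch 1, alphaTub84D and betaTub97EF came next and overlapped, and in its controls futsch, stai and tau overlapped in turn.

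The genes with the pattern most like stai were ranked by Pearson's r of log2 CPM, taken relative to the controls of each batch, over 17 libraries. Among 6459 genes the highest were RhoGAP100F (r = 0.988), Tusp (0.982), CG6024 (0.981), lncRNA:CR31451 (0.980) and ppk17 (0.978). All 5 were highest with scute, which follows from choosing stai for its scute response and these genes for their likeness to stai. With scute, RhoGAP100F averaged 289 CPM against 15.004 CPM in controls, and CG6024 averaged 95.9 CPM against 2.34 CPM. Of the other microtubule genes, tau had r = 0.932 and ranked 177th, futsch had r = 0.873 and ranked 466th, and alphaTub84D had r = 0.738. At the other end, betaTub97EF had r = -0.91 and Map205 r = -0.84, while betaTub60D had r = -0.26. The libraries of a group share genotype, batch and depth, so these values describe mainly the step between scute and the other groups. As stai was chosen for that step, the correlations and ranks are a description only.

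Markers of enteroendocrine cells and of neurons and glia were read beside stai, futsch and tau. With scute, 22.8% of all genes tested were called higher and 22.2% lower. Of 12 enteroendocrine markers, 11 rose and 1 fell (NPF) with scute, and their summed level was 5698 to 9579.9 CPM, against 4065 to 4493 CPM in controls. Most of the control sum was NPF, at 1637 to 2114 CPM with scute, against 3568 to 3880.3 CPM in controls. Without it, a sum chosen after the values were seen, the other 11 markers came to 4017 to 7466 CPM, against 497 to 614 CPM. The enteroendocrine regulator pros had 478 to 661 CPM, against 36.8 to 44.7 CPM in controls. Of 10 neuron and glia markers, 7 rose and 1 fell, and they summed to 494 to 631 CPM, against 150.3 to 161 CPM. As examples of those that were higher, the synaptic vesicle gene nSyb had 82.0 to 123 CPM, against 7.88 to 9.05 CPM. The neuronal gene elav had 68.6 to 75.97 CPM, against 25.5 to 29.4 CPM, and the marker that fell is not named here. Markers of other cells were read as well. Of 8 enterocyte markers, 2 rose and 2 fell with scute, near the shares of 22.8% and 22.2% over all genes tested. They summed to 1263 to 1471 CPM, against 944 to 1551 CPM in controls. The 2 that rose encode septate junction proteins: mesh was at 237 to 365 CPM, against 5.79 to 24.8 CPM, and Ssk at 451 to 673 CPM, against 14.5 to 47.6 CPM. Values of the 2 enterocyte markers that fell are not given here. Of 6 progenitor markers, 3 rose (Dl, mira and Su(H)) and 2 fell (klu and esg), and they summed to 883 to 1183 CPM, against 1049 to 1222 CPM. No marker of these lists was at 0 in all libraries of any group. Their part in the levels of stai, futsch and tau was not tested.

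In the knock-down, where stai and tau fell, 6 of 12 enteroendocrine markers and 2 of the 7 neuron and glia markers tested fell, and 4 of 6 progenitor markers fell while 4 of 8 enterocyte markers rose. Of all genes tested, 11.2% were called higher and 9.16% lower in the knock-down. Summed progenitor markers were at 542 to 661 CPM, against 887 to 1056 CPM in controls, and summed enterocyte markers at 619 to 816 CPM, against 419.6 to 490.2 CPM. With da overexpressed, 6 of 12 enteroendocrine markers fell, where 9.36% of all genes tested were called lower, while stai and tau were not called. The neuron and glia markers summed to 60.4 to 67.6 CPM with da and 48.9 to 56.9 CPM in the knock-down, against 64.4 to 70.2 CPM in controls. The part of these markers in the changes of stai, tau and betaTub60D was not tested.

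A further 81 genes of the microtubule system were read in 7 lists, from folding cofactors to motors and centrosomes. With scute, 22 of 80 tested rose and 21 fell, where 22.8% of all genes tested were called higher and 22.2% lower. With da:da, 3 of 80 rose and 7 fell, where 5.39% were called higher and 6.52% lower. With da, 8 of 70 rose and 6 fell, where 13.5% were called higher and 9.36% lower. In the knock-down 6 of 70 rose and 13 fell, where 11.2% were called higher and 9.16% lower. The median log2 change over the 7 lists together was 0.07 with scute, 0.02 with da:da, 0.05 with da and -0.11 in the knock-down. The lists were read against the shares called among all genes given above.

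**Figure D4:**
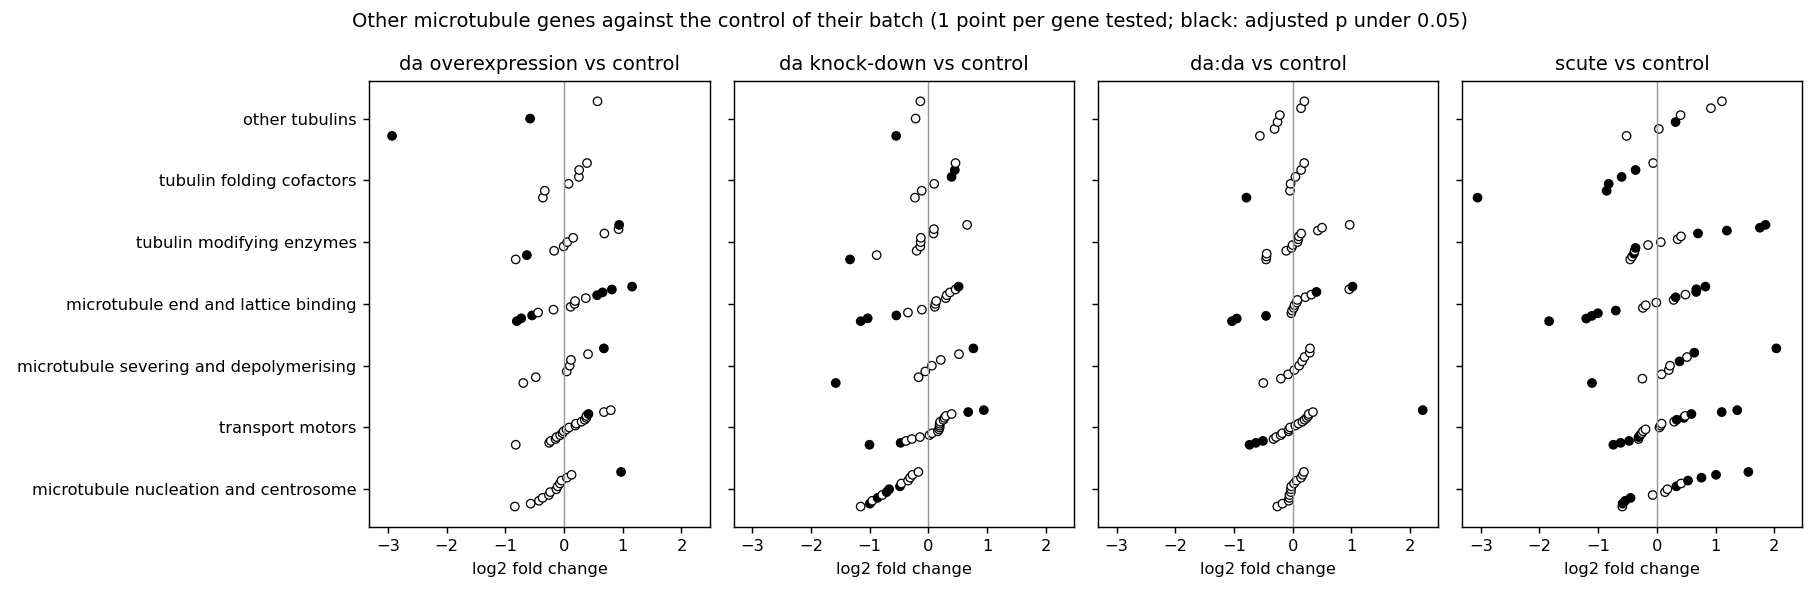
Log2 fold change of each tested gene of the 7 lists (1 point per gene, rows are lists) in the 4 comparisons with control; black points have an adjusted p under 0.05. With scute, black points lie on both sides of 0 in every list except the tubulin folding cofactors, where 5 of 6 lie below it, and the other tubulins, where the 1 black point lies above it.

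Of the 6 tubulin folding cofactors, which help newly made tubulins form dimers, 5 fell with scute and none rose (median log2 change -0.71). The largest fall was that of CG1890, which encodes cofactor A, at 16.8 ± 1.59 CPM with scute against 139 ± 38.8 CPM in controls (log2 change -3.06 ± 0.21, adjusted p = 3e-07). The cofactor B gene TBCB was at 37.1 ± 4.06 CPM, against 67.1 ± 6.88 CPM (log2 change -0.86 ± 0.11, adjusted p = 4.3e-05), although 16.6% of its exon bases overlap the antisense gene par-1 and counting ignored strand. With da:da, 1 of 6 fell, and it was CG1890 (log2 change -0.79 ± 0.19, adjusted p = 0.0195). It did not pass once control replicate 1 (adjusted p = 0.0818), control replicate 3 (0.0622) or da:da replicate 3 (0.085) was left out. With da none of the 6 was called, and in the knock-down 2 rose (CG1890 and TBCC). With unscaled library sizes neither passed (log2 change 0.09 for CG1890 and 0.03 for TBCC). Leaving out any control library, knock-down replicate 1 or knock-down replicate 2 also ended both calls (adjusted p 0.0724 to 0.138 for CG1890 and 0.0503 to 0.153 for TBCC), nor did TBCC with the replicate block (0.0585).

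Of 13 tested enzymes that modify tubulin, 4 rose and 2 fell with scute. The tubulin acetyltransferase gene Tat was at 58.9 ± 6.37 CPM with scute, against 16.3 ± 3.13 CPM in controls (log2 change 1.85 ± 0.15, adjusted p = 9.7e-07). It also rose with da, to 23.5 ± 4.40 CPM (n = 2), against 12.3 ± 2.27 CPM in controls (log2 change 0.94 ± 0.19, adjusted p = 0.00689), a call that was lost when da replicate 2 was left out (0.73, adjusted p = 0.0652). The tubulin ligase-like gene TTLL6B rose with scute (log2 change 1.19 ± 0.24, adjusted p = 0.00123). The falls of HDAC6 (-0.36 ± 0.11, adjusted p = 0.0174) and Nna1 (-0.39 ± 0.13, adjusted p = 0.0271) had the opposite sign with unscaled library sizes, at 0.08 and 0.05. The HDAC6 call was also lost without scute replicate 1 (adjusted p = 0.0543) or 2 (0.0636), and 21.1% of its exon bases overlap an antisense RNA gene. The Nna1 call was lost without control replicate 1 (adjusted p = 0.0812) or 2 (0.0679), without scute replicate 1 (0.0953) or 3 (0.0600), with the stricter filter (0.0556) and with all 17 libraries in 1 fit (0.0828). With da:da none of the 13 was called.

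Among 14 proteins that bind microtubule ends or the lattice, Jupiter, a microtubule-associated protein, was called in all 3 comparisons of da or da:da with control. It was at 263 ± 15.7 CPM with da (n = 2) and 57.5 ± 7.20 CPM in the knock-down, against 118 ± 13.9 CPM in controls (n = 3 each). The log2 change was 1.16 ± 0.15 with da (adjusted p = 0.000574) and -1.03 ± 0.14 in the knock-down (adjusted p = 0.00103). With da:da it was at 528 ± 59.7 CPM, against 260.2 ± 39.8 CPM in controls (log2 change 1.02 ± 0.13, adjusted p = 0.000202). The minus-end protein gene Patronin was lower with da at 97.8 ± 3.10 CPM (n = 2), against 171 ± 25.5 CPM in controls (log2 change -0.81 ± 0.16, adjusted p = 0.00653). With da:da it fell by 0.95 ± 0.09 on the log2 scale (adjusted p = 2.9e-05). It rose in the knock-down (0.52 ± 0.14, adjusted p = 0.0306). It did not pass once control replicate 1 (adjusted p = 0.1149), control replicate 2 (0.136) or knock-down replicate 3 (0.0979) was left out, or with unscaled library sizes (0.16, adjusted p = 0.415).

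With scute, 4 of these 14 rose and 5 fell. The plus-end gene CLIP-190 fell to 48.5 ± 4.03 CPM with scute and 84.7 ± 20.0 CPM with da:da, against 173 ± 13.6 CPM in controls (log2 change -1.84 ± 0.15, adjusted p = 1.3e-06, and -1.03 ± 0.15, adjusted p = 0.000621). The gene tacc, whose product works at centrosomes, fell with scute (-1.20 ± 0.10, adjusted p = 1.4e-06). The CLASP gene chb rose with scute (0.83 ± 0.12, adjusted p = 0.000133).

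Of 9 severing and depolymerising proteins, 3 rose and 1 fell with scute. The kinesin gene Klp67A, which acts on spindle microtubules, was at 8.07 ± 1.12 CPM with scute, against 1.96 ± 0.581 CPM in controls (log2 change 2.04 ± 0.23, adjusted p = 1.8e-05). The katanin subunit gene kat80 rose with scute (0.64 ± 0.10, adjusted p = 0.000226). The katanin gene Kat60 rose with da to 35.4 ± 0.269 CPM (n = 2), against 22.1 ± 1.71 CPM in controls (log2 change 0.68 ± 0.12, adjusted p = 0.00294).

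Of 19 motor proteins and adaptors, 5 rose and 5 fell with scute, and 1 rose and 3 fell with da:da. The dynein light chain gene ctp was at 708 ± 47.0 CPM with scute, against 329 ± 30.3 CPM in controls (log2 change 1.11 ± 0.11, adjusted p = 4.5e-06). The gene of the conventional kinesin heavy chain, Khc, fell with da:da (-0.73 ± 0.09, adjusted p = 0.000292) and with scute (-0.62 ± 0.09, adjusted p = 0.000186), the scute call being lost with unscaled library sizes (-0.18, adjusted p = 0.148). The axonal kinesin gene unc-104 was at 238 ± 21.7 CPM with da:da and 132 ± 41.8 CPM with scute, against 51.1 ± 8.20 CPM in controls (2.22 ± 0.20, adjusted p = 1.7e-05, and 1.37 ± 0.20, adjusted p = 0.000106). The kinesin gene Khc-73 rose in the knock-down (0.95 ± 0.17, adjusted p = 0.00468) and fell with da:da (-0.62 ± 0.10, adjusted p = 0.00102).

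Of 13 nucleation and centrosome proteins, 5 rose and 3 fell with scute, 5 fell in the knock-down and none were called with da:da. The centrosome scaffold gene spd-2 was at 9.43 ± 0.240 CPM with scute, against 3.20 ± 0.334 CPM in controls (log2 change 1.56 ± 0.15, adjusted p = 5.6e-06), and the pericentrin-like gene Plp rose as well (0.76 ± 0.10, adjusted p = 5.6e-05). In the knock-down the centriole gene asl was at 4.705 ± 0.391 CPM, against 8.56 ± 1.01 CPM in controls (-0.86 ± 0.15, adjusted p = 0.0044). The gamma-tubulin complex gene Grip128 fell in the knock-down (-0.71 ± 0.15, adjusted p = 0.00886).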

How the data were processed

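Sorted midgut progenitors were profiled by RNA-seq in 17 libraries of 6 groups and 2 batches, grouped by their labels. The authors deposited raw counts per gene made with featureCounts 2.0.2 on exons of BDGP 6.28 (annotation release 101), per the file headers, with no strand option and without reads that mapped to several places or genes. Batch 1 was read as single reads of 50 nt and batch 2 as pairs of 150 nt, per the labels' protocols, and mates were counted separately in 9 libraries. The authors' deposited table of log2 fold changes and adjusted p-values was made with DESeq2, per the title sheet of the workbook, and only its log2 value for stai is printed. A sheet of 17 columns of values was not used.

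Each batch was fitted on its own with edgeR 4.0.16 (limma 3.58.1, R 4.3.3): filterByExpr, TMM normalisation, the quasi-likelihood test and Benjamini-Hochberg adjustment, called under 0.05. The comparison of da:da with da was fitted on all 17 libraries. The 10 genes, the 7 pathway lists and the marker lists were chosen with earlier results of these data known. From each pathway list up to 2 genes that rose and 2 that fell could be named per comparison: those called, with the largest change, without overlap and with at least 5 CPM in 1 group. The other listed genes are given as counts, for some lists and comparisons only within the totals of the 7 lists. Likeness to stai used log2 CPM (prior count 2) minus the mean of the controls of the same batch, among genes with at least 10 CPM in 1 group.

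The labels number the replicates and do not say that they are pairs. Knock-down and control libraries of the same number had correlations of deviations of 0.187, 0.19 and 0.287. Those of different numbers had -0.251 to 0.015. A value of 0.279 (da replicate 2 with knock-down replicate 1) is no yardstick, as the deviations of the 2 da libraries mirror each other. Without pairs in the labels, pairing is not established. Alternatives were DESeq2 1.42.0 and its size factors, unscaled library sizes, no filter, a filter of 5 CPM, robust dispersion, the replicate block, other sets of libraries and leaving out each library. Assigned reads per library limit precision mainly for genes with few reads, and p-values reflect the spread between pools of guts.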

Additional observations from a re-analysis of the deposited data

Results flagged for a closer look

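A pair of motor and severing genes outside the 10 differed in a test of the difference itself, between their change with da:da and their change with monomeric da (edgeR's quasi-likelihood test on all 17 libraries). They were the only calls among the 80 genes of the 7 lists tested, 1 higher and 1 lower. Of all 14083 genes tested, 6.99% were called, 2.5% higher and 4.49% lower, so the lists as a whole do not stand out. For the axonal kinesin gene unc-104 the da:da change exceeded the da change by a log2 value of 3.12 ± 0.40 (SE, adjusted p = 8.1e-05). It was at 238 ± 21.7 CPM with da:da, against 51.1 ± 8.20 CPM in the controls of batch 2, and at 193 ± 63.1 CPM with da, against 342 ± 27.8 CPM in the controls of batch 1. The da change alone was not called (log2 change -0.82 ± 0.32, adjusted p = 0.0929).

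For the katanin subunit gene kat80 the difference was -0.54 ± 0.16 (adjusted p = 0.0459). It was at 19.8 ± 0.390 CPM with da:da, against 22.8 ± 1.43 CPM in the controls of batch 2, and at 26.3 ± 0.154 CPM with da, against 19.8 ± 1.22 CPM in the controls of batch 1. Neither change alone was called (log2 change -0.20 ± 0.10, adjusted p = 0.273 with da:da, and 0.41 ± 0.13, adjusted p = 0.0538 with da). The constructs were read in different batches against different controls.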

How the results depend on the processing

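Of 2710 recomputed values of 150 gene results, 2499 kept their direction and, where tested, their side of the threshold. Of the rest, 135 were no longer called, 28 became called, 46 changed sign and 2 moved. Values that changed sign were counted only as such, also where a call was lost. The stai values with scute had no test and counted as kept if they shifted by less than the SD between libraries. The 2 that moved are the stai values with unscaled library sizes, 5.48 for scute against control and 5.56 against da:da. The cause of these changes was not tested.

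With unscaled library sizes the count of genes called in the knock-down was 3166, against 1947, and 15.3% of them were higher, against 55.1%. That scaling moved the share called higher to 77.0%, against 53.1% with TMM, between da and the knock-down, with da:da to 63.6%, against 45.3%, with scute to 77.9%, against 50.6%, between scute and da:da to 73.2%, against 50.2%, and in the difference between da:da and da to 48.9%, against 35.7%. It changed the sign for alphaTub84D (-0.35) and betaTub97EF (-0.22) in the knock-down, for both between da and the knock-down (0.12 and 0.0068), for HDAC6 (0.0804) and Nna1 (0.0506) with scute, for alphaTub84B between scute and da:da (0.26) and for Map205 in the difference between da:da and da (0.11). That Map205 difference was also 0.0019 with the stricter filter and 0.0411 with the replicate block, and the alphaTub84B difference was -0.0316 with DESeq2's size factors and with DESeq2. The knock-down value of alphaTub84D was -0.0258 with the stricter filter and -0.0072 with the replicate block in the knock-down and control libraries alone, an alternative added after seeing the data.

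Leaving out 1 library at a time gave 1339 to 2118 genes called with da, 937 to 2163 in the knock-down, 1940.0 to 2879 between them, 1196 to 1863 with da:da, 5627 to 6553 with scute, 5174 to 6107 between scute and da:da, and 680.0 to 1057 in the difference between da:da and da. With da, leaving out control replicate 2 (1379) or da replicate 2 (1339) moved the count most; in the knock-down it was control replicate 1 (1095) or 2 (937). Signs changed within these ranges: with da, tau -0.87 to 0.0063 and betaTub97EF -0.34 to 0.0861; in the knock-down, futsch -0.24 to 0.15, Map205 -0.12 to 0.10 and alphaTub84D -0.0867 to 0.14; with da:da, alphaTub85E -0.26 to 0.37. Between scute and da:da they changed for alphaTub84B, -0.15 to 0.0036, and betaTub56D, -0.0263 to 0.0587. In the difference between da:da and da they changed for tau, -0.14 to 0.74, Map205, -0.18 to 0.0942, alphaTub84B, -0.13 to 0.18, alphaTub84D, -0.0311 to 0.17, and alphaTub85E, -2.98 to 3.47, none of them called in the full data. When 1 da library was left out, the other was assumed to vary like the other groups.

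With the replicate block 2438 genes were called with da, 2031 in the knock-down (2676 in its libraries alone), 1755 with da:da and 6361 with scute. In batch 2 the numbers gave little sign of pairs (correlations -0.11 to 0.159 for the same number and -0.127 to 0.139 for others). With only 2 da libraries, whose deviations mirror each other, correlations with da cannot show pairs. Outside the knock-down the block ended the scute call of betaTub56D (adjusted p = 0.0611) and gave one for futsch in the difference between da:da and da (0.00466). Depth limits alphaTub85E in both batches, and stai and tau in batch 1, where values rest on few reads per library.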

Other observations

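Other marker lists gave values that belong to no comparison above. Of all genes tested, 22.8% were called higher and 22.2% lower with scute, and 5.39% higher and 6.52% lower with da:da. Of 3 germline markers, all 3 rose with scute, and they summed to 4.17 to 4.37 CPM, against 1.97 to 2.08 CPM in controls. Of 4 haemocyte markers, 1 rose with scute and none were called with da:da, and they summed to 43.6 to 55.7 CPM with scute, against 48.4 to 56.3 CPM in controls. Of 2 tracheal markers, 1 rose and 1 fell with scute, and they summed to 5.25 to 6.14 CPM, against 8.16 to 8.52 CPM in controls. Of 12 enteroendocrine markers, 3 fell and none rose with da:da, and their summed level was 4769 to 8287 CPM, against 4065 to 4493 CPM in controls. Most of that sum was NPF, which was not called, at 4177 to 7396 CPM with da:da, against 3568 to 3880.3 CPM in controls (log2 change 0.55 ± 0.19, adjusted p = 0.0919). The other 11 summed to 592 to 891 CPM, against 497 to 614 CPM.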
